A study of Homo sapiens with 23 samples.

Results

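The genes described here are 38 genes of glycolysis and of the response to low oxygen, out of 57875 genes listed in each sample. They were chosen by pathway membership from a list of gene symbols and matched to Ensembl identifiers. The rule holds no measured value, though earlier results of these data were known when the list was chosen. The list holds 15 enzymes that take glucose to pyruvate, 6 genes of lactate dehydrogenase and of sugar and lactate transport, 3 regulatory kinases, 4 genes of oxygen sensing and hypoxia-inducible factors (HIF), and 10 genes that are induced when oxygen is low. Of the 38, 37 passed the filter on low counts, and only *CA9* did not.

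RNA was sequenced from HCT116, an established human colorectal carcinoma cell line, in 3 biological replicates each of wild-type cells and of 4 knockout lines, 15 samples in all. The knockout lines carried disrupted *AGO1* (genotype AGO1-/-), *AGO2* (AGO2-/-), both genes (*AGO1/2*, genotype AGO1-/-, AGO2-/-), or *AGO1*, *AGO2* and *AGO3* (*AGO1/2/3*, with AGO3-/- in addition). Argonaute (AGO) proteins carry microRNAs to target transcripts. All lines grew in the same serum-supplemented medium, with no agent added and no change of oxygen described in the sources used here. Each genotype is a single line made by CRISPR editing, so that genotype and line cannot be told apart.

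Glycolysis splits glucose into pyruvate in the cytosol and yields ATP without oxygen. Tumour cells often run it at a high rate and export the lactate made from pyruvate. When oxygen is scarce, prolyl hydroxylases no longer mark the HIF alpha subunits for destruction, and HIF raises transcription of most glycolytic enzymes, of glucose and lactate transporters, and of genes for blood vessel growth, acid balance and mitophagy. Regulation of HIF1A by oxygen acts mainly on the protein, so that its mRNA and its activity need not move together.

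Total counts per sample ranged from 27709971 to 45271146, and the median was 30701840. Levels are given in CPM, counts scaled to a common library size with TMM factors, and differences as log2 fold changes with the standard error (SE) of the model. Counts were compared in a single edgeR quasi-likelihood model of all 15 samples, and genes with a Benjamini-Hochberg adjusted p at or under 0.05 over the 22842 genes tested were called higher or lower. *AGO1* RNA fell from 138, 108 and 146 CPM in wild-type replicates to between 28.7 and 39.5 CPM in the 9 samples with disrupted *AGO1*. *AGO3* RNA fell from 100.03, 130.4 and 107 CPM to 51.8, 57.4 and 46.1 CPM in *AGO1/2/3* knockout cells. *AGO2* RNA stood at 379, 459 and 382 CPM in wild-type, 262, 314 and 283 CPM in *AGO2* and 518, 557 and 538 CPM in *AGO1/2/3* knockout cells. It lay below every wild-type sample in *AGO1/2* knockout cells, but also in *AGO1* knockout cells, where *AGO2* was not disrupted. Its RNA level alone therefore did not mark the disrupted gene. The study checked the knockout lines by DNA sequencing and reported the targeted proteins absent on western blots. Of 6 epithelial and colorectal markers, *EPCAM*, *CDH1*, *KRT8*, *KRT18* and *CDX2* were detected in every line, while *VIL1* was under 1 CPM throughout. The blood marker *PTPRC* and the endothelial marker *PECAM1* were under 2 CPM in every sample. In *AGO1/2/3* knockout cells *CDH1* had 8.73, 9.21 and 7.76 CPM against 84.5, 134 and 74.6 CPM in wild-type cells, *EPCAM* had 61.9, 63.97 and 64.8 against 205, 211 and 222 CPM, and the mesenchymal marker *VIM* had 42.7, 49.05 and 64.8 against 4.54, 3.16 and 4.85 CPM. In *AGO1/2* knockout cells *CDH1* had 27.1, 29.5 and 36.2 CPM, *EPCAM* 129.8, 102 and 106 CPM and *VIM* 24.6, 21.6 and 25.8 CPM. *AGO1* knockout cells had 31.6, 40.2 and 59.99 CPM of *CDH1*, 159, 174 and 173 CPM of *EPCAM* and 8.96, 10.1 and 5.10 CPM of *VIM*. In each of these 3 lines *CDH1* and *EPCAM* lay below and *VIM* above every wild-type sample. The other detected epithelial markers did not move as a set. Estimated counts of *KRT8* were 38023.6, 32213.2 and 25223.7 in the double knockout against 20454.9, 18683.5 and 22828 in wild-type cells. Scaled to library size, *KRT8* was above every wild-type sample there and in the triple knockout, and *KRT18* in the double. With only *AGO1* lost, both lay below. *CDX2* lay below only in the triple knockout. In *AGO2* knockout cells *EPCAM* lay above and both *VIM* and *KRT18* below every wild-type sample, and *CDH1*, *KRT8* and *CDX2* overlapped. The mesenchymal marker *COL1A1* had 26.7, 23.8 and 25.9 CPM in *AGO1/2/3* knockout cells and 24.1, 27.5 and 20.2 CPM in wild-type cells. In *AGO1*, *AGO2* and *AGO1/2* knockout cells *COL1A1* lay below every wild-type sample. The 2 mesenchymal markers thus moved in opposite directions in *AGO1* and *AGO1/2* knockout cells. The part these markers play in the results was not tested.

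A single wild-type library stood apart for this pathway. Wild-type replicate 3 had the highest level of the 3 wild-type libraries for 32 of the 37 members with a mean of at least 1 CPM, against 40.7% of all 16076 genes at that level. It exceeded the mean of replicates 1 and 2 by over 1.5-fold for 30 of the 37 members (81.1%), against 4.79% of all genes, and the median ratio was 2.20 for members and 1.03 for all genes. The excess reached 4.95-fold for the aldolase gene *ALDOC*, 4.81-fold for the mitophagy receptor *BNIP3* and 4.24-fold for the regulatory kinase *PFKFB4*. *HIF1A*, *EPAS1*, *SLC16A1* and *VEGFA* did not share it, with ratios of 0.908, 0.948, 0.843 and 0.497, and *PFKM* was highest in replicate 1. Of 21 further hypoxia-induced genes at that level, 17 were also highest in replicate 3. The median coefficient of variation of the members between replicates was 56.3% in wild-type cells against 14.2% for all genes, while it was between 8.17% and 14.3% for the members in the knockout lines. Neither the total count of replicate 3, nor its mitochondrial share (8.30%, against 7.83% and 8.34% in the other two), nor the share of its 10 largest genes (12.9%, against 11.8% and 14.5%) lay far from the other wild-type libraries. Wild-type replicate 2 was in turn the lowest of the 3 for most enzymes between glucose and pyruvate and by far the highest for *VEGFA*. Counts of members called against wild-type cells are therefore given with and without replicate 3, together with the members whose call changed.

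**Figure D1:**
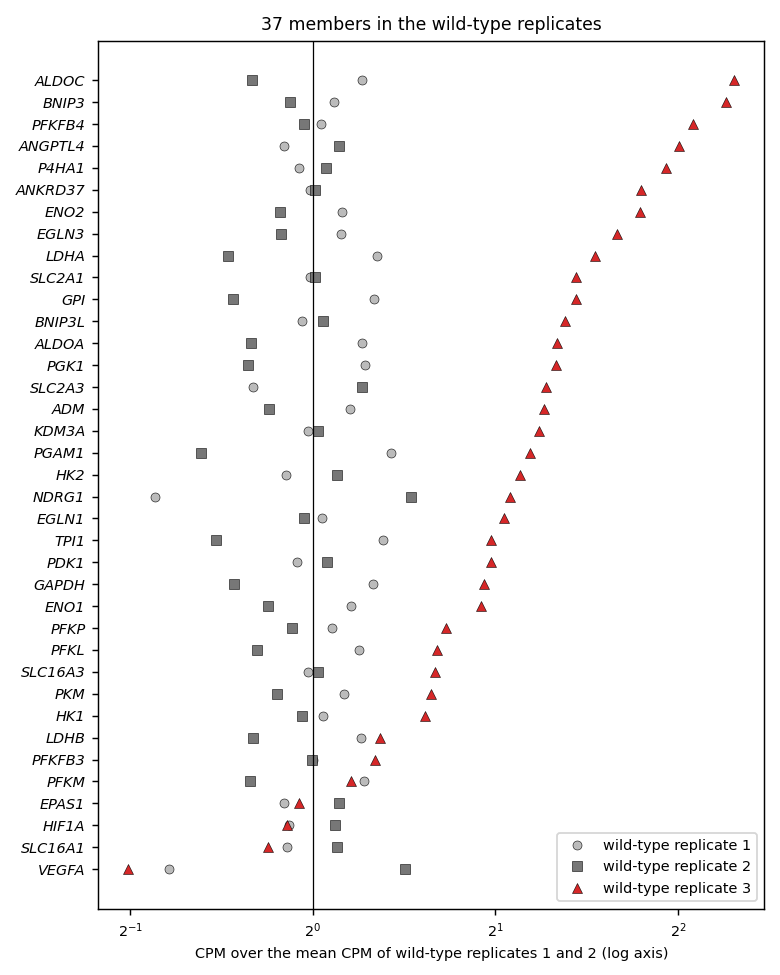
Level of 37 members in each wild-type replicate, as a ratio to the mean CPM of wild-type replicates 1 and 2 on a log axis (circles, replicate 1, squares, replicate 2, triangles, replicate 3). Most triangles lie right of 1, up to 4.95 for *ALDOC*, while *VEGFA* lies left of it at 0.497.

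All 38 members were looked up in the RefSeq promoter table on GRCh38.p14, which gives 250 bases before and 50 bases after each annotated start. Of the 38 members, 33 had an entry, while *SLC2A3*, *SLC16A1*, *VEGFA*, *NDRG1* and *BNIP3L* had none. The letters ACGTG, the core of the element that HIF binds, occurred on either strand in 24 of 61 member promoters (39.3%) and in 21.4% of all 35116 promoters of the same length. With GCGTG counted as well, the shares were 68.9% and 48.4%. The 61 promoters belong to 33 genes, so several starts of a gene count separately. The list was chosen for glycolysis and the response to low oxygen, so a higher share is no independent result. The sequences below are shown for the 8 members with the highest ratio of replicate 3 to the others whose promoter holds ACGTG upstream of the start, on the strand of the gene, with ACGTG or its reverse complement CACGT in capitals. A match describes letters in the window and not occupancy by any factor. *PFKFB4*, *EGLN3*, *SLC2A1*, *ADM* and *KDM3A* held no ACGTG in any listed promoter, at ratios of 4.24, 3.18, 2.72, 2.41 and 2.36. *PFKM* and *PFKFB3* held it, at ratios of 1.15 and 1.27. A link between these letters and the level in replicate 3 was not tested.
CA9, chr9:35673900-35673924, plus strand, 13 bases before the start: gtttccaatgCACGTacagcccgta
ALDOC, chr17:28576909-28576933, minus strand, 23 bases before the start: ccggaggagtCACGTagctctgcga
BNIP3, chr10:131982042-131982066, minus strand, 128 bases before the start: cacgcgccgcACGTGccacacgcac
ANGPTL4, chr19:8363911-8363935, plus strand, 229 bases before the start: aaagaagagtCACGTctcccacggt
P4HA1, chr10:73096938-73096962, minus strand, 81 bases before the start: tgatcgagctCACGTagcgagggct
ANKRD37, chr4:185396688-185396712, plus strand, 138 bases before the start: gtgtttgtgtACGTGcggccgtggc
ENO2, chr12:6914452-6914476, plus strand, 113 bases before the start: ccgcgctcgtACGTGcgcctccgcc
LDHA, chr11:18394480-18394504, plus strand, 68 bases before the start: tgggttcccgCACGTccgccggccc
The *BNIP3* match is part of CACGTG, the E-box letters, which occur in 7.26% of all promoters and hold ACGTG on both strands.

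Per kilobase of exon, the members covered a wide range in wild-type cells. Exon length is the union of all annotated exons of a gene, 8572 bases for *PKM*, 6026 for *LDHA* and 2983 for *LDHB*. Ranks depend on this length. In CPM, *PKM* had 1097, 849.7 and 1523 and *LDHB* 702, 466 and 753 in wild-type replicates 1 to 3. *GAPDH*, the dehydrogenase at the centre of the pathway, led with 679 ± 306 CPM per kb (SD, n = 3), followed by enolase *ENO1* at 264 ± 109.8 and lactate dehydrogenase B, *LDHB*, at 215 ± 51.4. Aldolase *ALDOA*, triose phosphate isomerase *TPI1*, pyruvate kinase *PKM*, *LDHA* and phosphoglycerate mutase *PGAM1* followed between 147 ± 88.3 and 117 ± 67.01 CPM per kb and did not differ from each other beyond their spread. At the low end stood *SLC2A3* at 2.36 ± 1.36, the HIF target *ANKRD37* at 2.20 ± 1.73, the prolyl hydroxylase *EGLN3* at 0.976 ± 0.714 and the carbonic anhydrase *CA9* at 0.438 ± 0.537 CPM per kb. *CA9* counts were 5, 8 and 56 in wild-type replicates 1 to 3, 25, 11 and 11 in *AGO2* knockout cells and at most 4 in each of the other 9 samples. No fold change is given for *CA9*.

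**Figure D2:**
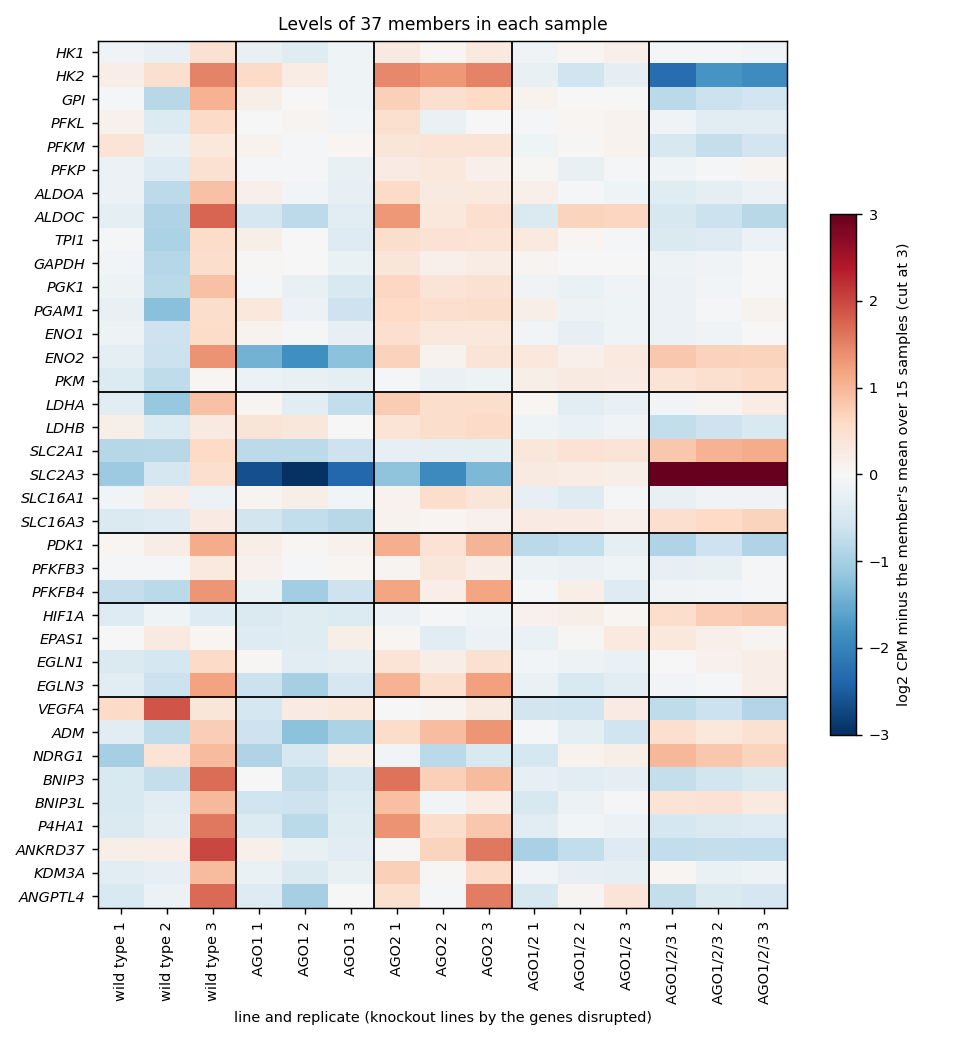
Level of 37 members in each of the 15 samples, as log2 CPM minus the member's mean over the samples (red, above the mean, blue, below it, colours end at 3). Columns are replicates of wild-type cells and of the knockout lines, and rows follow the order of roles in the text. Wild-type replicate 3 is red for most rows, and *SLC2A3* and *HK2* show the widest range in *AGO1/2/3* knockout cells.

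In *AGO1* knockout cells no member was called higher, and *SLC2A3*, *ENO2* and *SLC16A3* were called lower. That is 0 of 37 members against 3.17% of all genes tested, and 3 of 37 against 5.5%. At an unadjusted p under 0.05 in edgeR, 0 of the 37 were higher and 13 lower, and DESeq2 called 0 higher and 6 lower. In bulk RNA, fewer cells of a kind and less RNA per cell cannot be told apart. Without wild-type replicate 3 the counts were again 0 and 3, against 2.7% and 4.91% of genes, with *VEGFA* in place of *SLC16A3*. Without wild-type replicate 2 the count of lower members was 8, against 1146 of all 23407 genes tested. Without replicate 1 it was 7, against 961 of 23493. The median log2 fold change of the members was -0.38 with all samples and 0.00 without replicate 3, against -0.01 for all genes.

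In *AGO2* knockout cells *LDHB* and *ADM* were called higher and *SLC2A3* lower. That is 2 of 37 members against 8.55% of all genes, and 1 of 37 against 10.8%. Without wild-type replicate 3, 26 of 37 members were called higher, against 8.81% of all genes, and 1, *VEGFA*, was called lower, against 12.6%. The 26 included every enzyme from glucose to pyruvate except *PFKL* and *PFKM*, together with *LDHA*, *LDHB*, *SLC2A1*, *SLC16A3*, *PDK1*, *PFKFB4*, *EGLN1*, *EGLN3*, *ADM*, *BNIP3*, *BNIP3L*, *P4HA1* and *KDM3A*. The median log2 fold change of the members rose from 0.25 to 0.72 when that library was left out. Without wild-type replicate 1 or 2 no member was called higher, against 1074 of 23493 and 494 of 23407 genes tested. The count of higher members thus rested on which wild-type library was in the fit. The *AGO2* knockout files also name another mode of quantification in their headers than the other files, and mode and genotype cannot be told apart.

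In *AGO1/2* knockout cells *PKM* and *HIF1A* were called higher, and *HK2*, *PDK1*, *VEGFA* and *ANKRD37* were called lower. That is 2 of 37 members against 8.37% of all genes, and 4 of 37 against 8.35%. Without wild-type replicate 3 the counts were 6 and 3, against 7.87% and 8.56%, with *SLC2A1*, *SLC2A3*, *SLC16A3* and *ENO2* added to the higher members and *ANKRD37* no longer called. The median log2 fold change of the members was -0.20 with all samples and 0.23 without that replicate.

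In *AGO1/2/3* knockout cells the 2 glucose transporter genes, the lactate exporter *SLC16A3*, *PKM* and *HIF1A* rose, while *HK2*, *GPI*, *PFKM*, *LDHB*, *PDK1*, *VEGFA*, *P4HA1* and *ANKRD37* fell. That is 5 of 37 members against 20.3% of all genes, and 8 of 37 against 19.8%, so the members' shares lay below and near those of all genes. Without wild-type replicate 3 the counts were 10 and 6, against 18.3% and 19.5%. *ENO2*, *LDHA*, *EGLN1*, *ADM* and *BNIP3L* were then called higher as well, and *GPI* and *P4HA1* were no longer called. The members' median was -0.22 in log2 with all samples and 0.16 without that replicate. Without wild-type replicate 2, 17 members were called lower, against 4451 of all 23407 genes tested. The calls of *HK2*, *SLC2A1*, *SLC2A3*, *SLC16A3*, *PKM*, *PFKM*, *LDHB*, *PDK1*, *HIF1A*, *VEGFA* and *ANKRD37* held under each of the 23 alternatives that set no minimum fold, though *PKM*, *SLC16A3*, *HIF1A*, *PFKM* and *LDHB* changed by less than 2-fold.

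**Figure D3:**
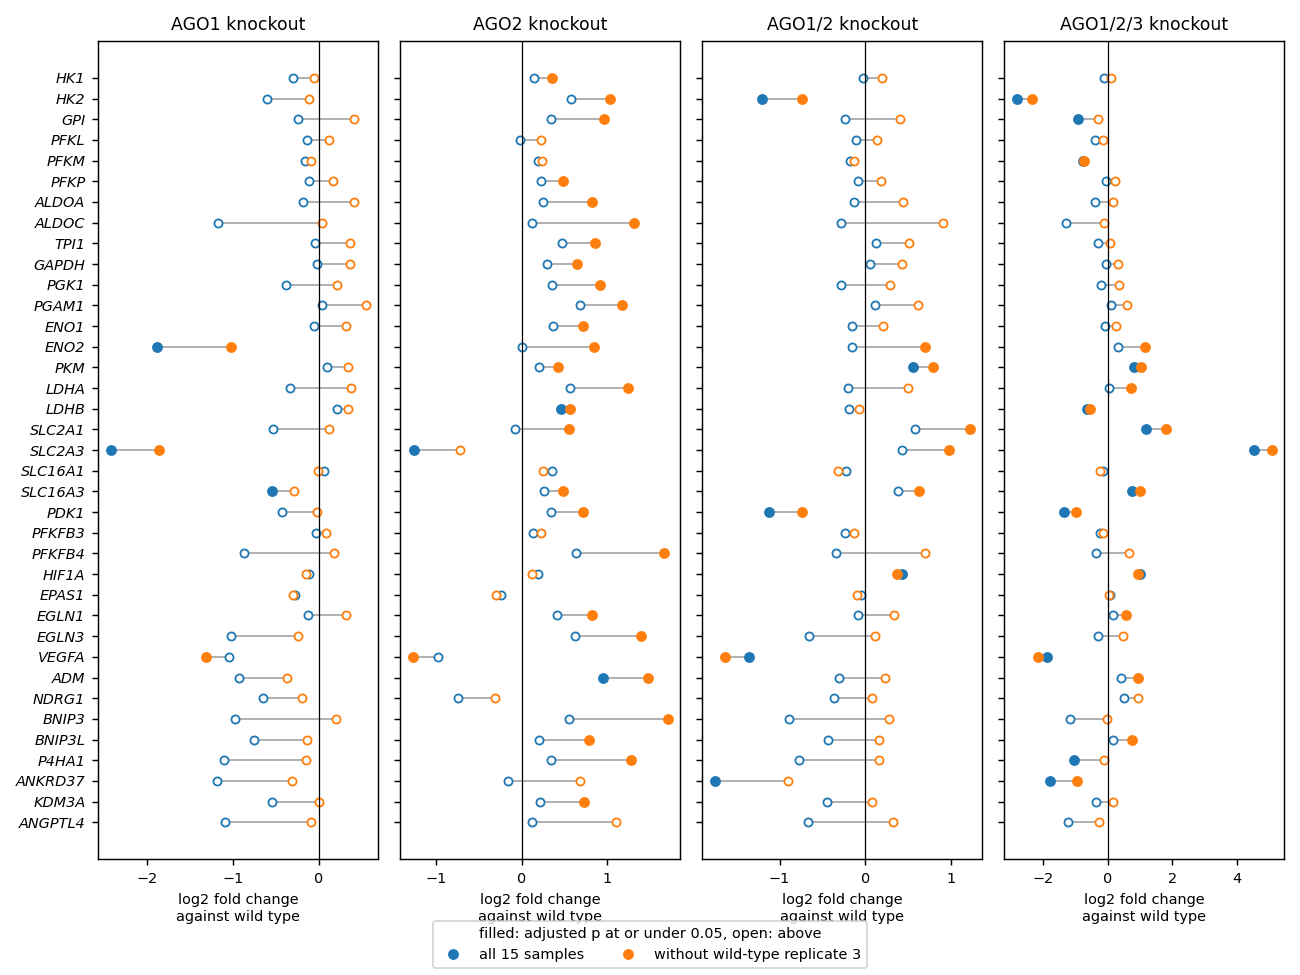
Log2 fold change of 37 members in each knockout line against wild-type cells, with all 15 samples (blue) and without wild-type replicate 3 (orange). Filled points had an adjusted p at or under 0.05 and open points did not. In *AGO2* knockout cells 2 members were called higher with all samples and 26 without that replicate.

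Glucose enters these cells through facilitative transporters. *SLC2A3* (GLUT3, ENSG00000059804, chromosome 12 from 7919230 to 8019007) had 9.21, 13.9 and 28.1 CPM in wild-type replicates 1 to 3, 3.17, 2.52 and 3.83 with *AGO1* lost, 8.53, 5.21 and 7.70 with *AGO2* lost, 23.7, 23.00 and 22.1 in the double and 268, 423 and 501 in the triple knockout. All 3 *AGO1/2/3* knockout samples lay far above every other sample, the *AGO1* knockout samples lay below all others, and the *AGO1/2* knockout samples fell within the wild-type range. Against wild-type cells the *AGO1* knockout differed by -2.42 (SE 0.36, adjusted p = 0.000668) in log2, the *AGO2* knockout by -1.26 (SE 0.33, adjusted p = 0.0182) and the triple knockout by 4.54 (SE 0.36, adjusted p = 1.27e-07), and the triple differed from the double knockout by 4.12 (SE 0.35, adjusted p = 1.11e-06). It was the largest change of any member in any of these comparisons. The call in *AGO2* knockout cells was lost without wild-type replicate 3, at -0.72 with adjusted p = 0.0659. The near-identical paralog *SLC2A14* held at most 12.5% of the summed counts of both genes in any sample. The 3 pseudogenes named for *SLC2A3* held at most 10.1% of their sum with it.

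*SLC2A1* (GLUT1, ENSG00000117394, chromosome 1 from 42925353 to 42958893) had 125, 127 and 342 CPM in wild-type replicates 1 to 3, 133, 131 and 147 with *AGO1* lost, 191, 185 and 186 with *AGO2* lost, 285, 304 and 298 in the double and 396, 468 and 493 in the triple knockout. Samples of the triple knockout were the highest, above wild-type replicate 3, which itself exceeded the *AGO1/2* knockout samples. Its log2 fold change was 1.19 (SE 0.28, adjusted p = 0.00279) in *AGO1/2/3* knockout cells with all samples and 1.82 (adjusted p = 5.31e-08) without wild-type replicate 3. It was 1.11 (SE 0.28, adjusted p = 0.00948) between *AGO1/2* and *AGO1* knockout cells, which does not use the wild-type mean. Against wild-type cells *AGO1/2* knockout gave 0.58 (SE 0.27, adjusted p = 0.173), which did not pass, and 1.22 (adjusted p = 7.39e-06) without replicate 3.

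Hexokinase traps glucose in the cell as glucose 6-phosphate, and HK2 is the inducible form. *HK2* (ENSG00000159399, chromosome 2 from 74834127 to 74893359) had 60.6, 73.7 and 147 CPM in wild-type replicates 1 to 3, 77.8, 60.7 and 47.6 with *AGO1* lost, 142, 129 and 148 with *AGO2* lost, 44.7, 34.5 and 43.03 in the double and 10.7, 15.3 and 14.1 in the triple knockout. The *AGO1/2/3* knockout samples were below all others, the *AGO1/2* knockout samples came next, and the *AGO2* knockout samples lay near wild-type replicate 3. Relative to wild-type cells *HK2* differed by -1.20 (SE 0.27, adjusted p = 0.00551) in the double and by -2.81 (SE 0.28, adjusted p = 1.65e-06) in the triple knockout, a level 7.03-fold lower than in wild-type cells, and -1.61 (SE 0.27, adjusted p = 0.000626) between the latter lines. All of these held without wild-type replicate 3. *HK1*, the broadly expressed hexokinase, stayed between 59.1 and 103 CPM and was called in no comparison with wild-type cells with all samples.

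**Figure D4:**
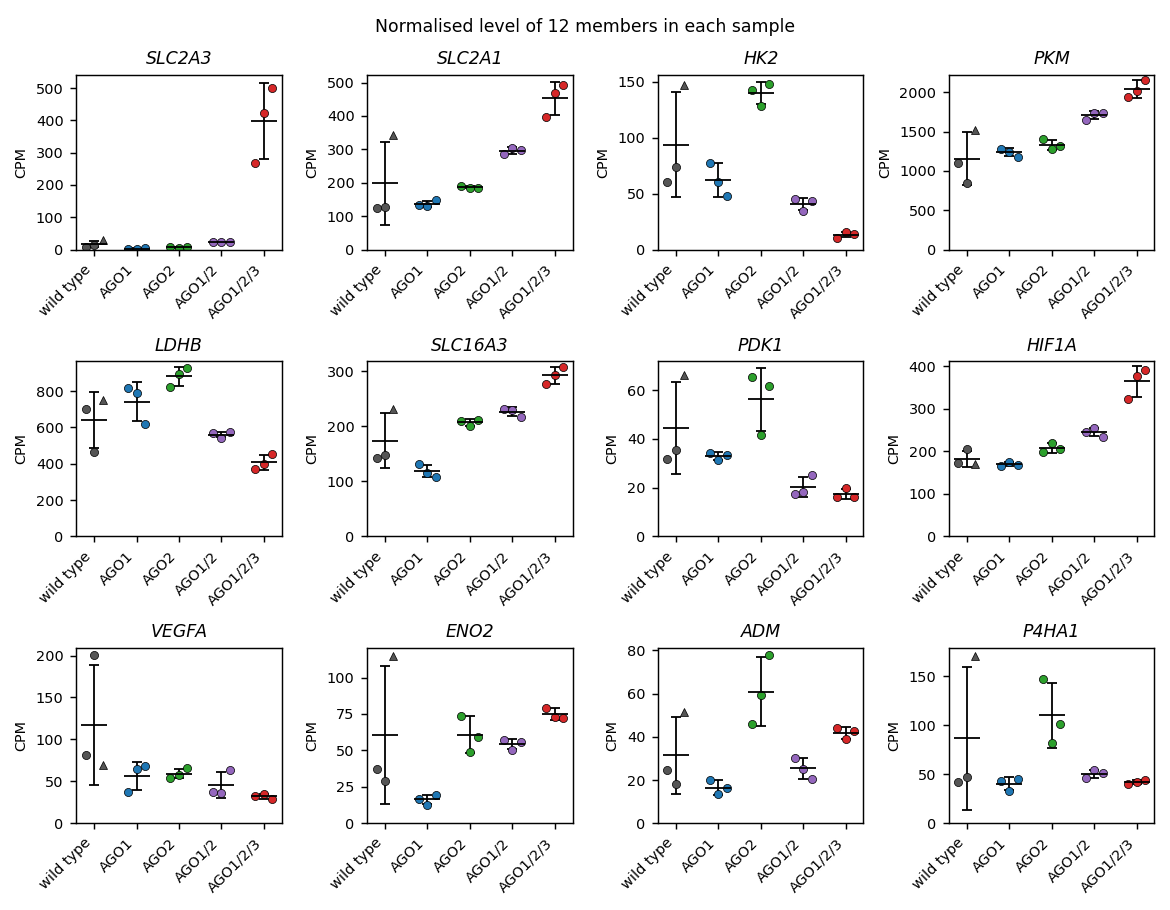
CPM of 12 members in each sample, on axes that start at 0 (points, replicates, triangle, wild-type replicate 3, horizontal line and bars, mean and SD of 3 replicates). *SLC2A3* reached 268, 423 and 501 CPM in *AGO1/2/3* knockout cells, where *HK2* fell to 10.7, 15.3 and 14.1 CPM.

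The first part of the pathway rearranges and splits the hexose. *GPI*, the isomerase, had 342, 200.1 and 736 CPM in wild-type replicates 1 to 3, 405, 355 and 324 with *AGO1* lost, 589, 494 and 537 with *AGO2* lost, 382, 353 and 351 in the double and 203, 229 and 239 in the triple knockout. The samples of the triple knockout reached no lower than wild-type replicate 2, so the groups overlapped, and the log2 fold change of -0.93 (SE 0.30, adjusted p = 0.0222) became -0.31 (adjusted p = 0.204) without wild-type replicate 3. *PFKM*, the muscle form of the rate-limiting phosphofructokinase, had 120.2, 77.96 and 114 CPM in wild-type replicates 1 to 3, 97.5, 87.4 and 94.8 with *AGO1* lost, 117, 121 and 120.2 with *AGO2* lost, 83.6, 93.2 and 98.3 in the double and 64.8, 55.9 and 61.1 in the triple knockout. The *AGO1/2/3* knockout samples lay below the other 12, with a log2 fold change of -0.78 (SE 0.13, adjusted p = 0.000242) against wild-type cells and -0.60 (SE 0.13, adjusted p = 0.00449) against *AGO1/2* knockout cells. *PFKL* and *PFKP*, the liver and platelet forms, were called in no knockout line with all samples, with log2 fold changes of -0.38 and -0.04 in *AGO1/2/3* knockout cells. The aldolases *ALDOA* and *ALDOC* were not called with all samples either, and *ALDOC* ranged from 13.9 to 86.6 CPM with its highest value in wild-type replicate 3. Its locus overlaps *RSKR* on the same strand, which averaged 10.4 CPM.

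The second part of the pathway makes ATP and pyruvate. *TPI1*, *GAPDH*, *PGK1* (phosphoglycerate kinase), *PGAM1* and *ENO1* were called in no knockout line with all samples, with log2 fold changes between -0.38 (*PGK1*, *AGO1* knockout) and 0.69 (*PGAM1*, *AGO2* knockout). *GAPDH* had 1568, 924 and 2387 CPM in wild-type replicates 1 to 3, 1706, 1671 and 1456 with *AGO1* lost, 2159, 1861 and 1957 with *AGO2* lost, 1750.4, 1676 and 1649 in the double and 1503, 1537 and 1681 in the triple knockout, and the wild-type replicates alone covered a wider range than the 12 knockout samples. Without wild-type replicate 3 all 5 were called higher in *AGO2* knockout cells, from 0.65 for *GAPDH* to 1.17 for *PGAM1*. Pseudogenes named for *GAPDH*, 65 of them, held at most 0.481% of the summed counts, and those of *PGAM1* at most 2.75%. Among the members, the share was largest for *SLC2A3*, at most 10.1%, and for *BNIP3*, at most 8.85% with 44 pseudogenes.

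*ENO2*, the neuronal enolase, followed another course. It had 37.1, 29.3 and 115 CPM in wild-type replicates 1 to 3, 16.9, 12.7 and 19.4 with *AGO1* lost, 73.9, 48.7 and 59.3 with *AGO2* lost, 56.9, 50.5 and 55.4 in the double and 79.4, 73.1 and 72.5 in the triple knockout. The 3 *AGO1* knockout samples were below every other sample. Its level differed by -1.89 (SE 0.37, adjusted p = 0.00537) between *AGO1* knockout and wild-type cells, 1.89 (SE 0.37, adjusted p = 0.00316) between *AGO2* and *AGO1*, and 1.73 (SE 0.37, adjusted p = 0.00356) between *AGO1/2* and *AGO1* knockout cells. The first of these was -1.03 (adjusted p = 0.00376) without wild-type replicate 3. In *AGO1/2/3* knockout cells it was 0.31 with all samples (adjusted p = 0.526) and 1.14 (adjusted p = 0.00025) without wild-type replicate 3. *PKM* (ENSG00000067225, chromosome 15 from 72199029 to 72231819), the final pyruvate kinase step, had 1097, 849.7 and 1523 CPM in wild-type replicates 1 to 3, 1284, 1247 and 1182 with *AGO1* lost, 1404, 1273 and 1310.2 with *AGO2* lost, 1651, 1742 and 1729.8 in the double and 1939.95, 2019 and 2158 in the triple knockout. The *AGO1/2* and *AGO1/2/3* knockout samples were above all samples of the other lines, with log2 fold changes of 0.56 (SE 0.15, adjusted p = 0.018) and 0.82 (SE 0.15, adjusted p = 0.000483). The call in *AGO1/2* knockout cells was lost without wild-type replicate 2, at 0.37 with adjusted p = 0.0601.

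Lactate dehydrogenase converts pyruvate to lactate, with the A subunit favouring lactate and the B subunit favouring pyruvate. *LDHA* had 552, 313 and 1262 CPM in wild-type replicates 1 to 3, 729, 545 and 412 with *AGO1* lost, 1162, 987 and 989.8 with *AGO2* lost, 711, 553 and 586 in the double and 652, 722 and 799 in the triple knockout. Its wild-type replicates spanned more than the whole range of the knockout samples, and no comparison with wild-type cells was called with all samples. *LDHB* had 702, 466 and 753 CPM in wild-type replicates 1 to 3, 817, 790.04 and 619 with *AGO1* lost, 824, 896 and 927 with *AGO2* lost, 567, 543 and 573 in the double and 369.8, 401 and 451 in the triple knockout. The *AGO2* knockout samples were above every other sample and the *AGO1/2/3* knockout samples were below every other sample, with log2 fold changes of 0.46 (SE 0.15, adjusted p = 0.0473) and -0.65 (SE 0.15, adjusted p = 0.00327). The *AGO2* call was lost under 16 of 23 alternatives, and without wild-type replicate 2 it was 0.25 (adjusted p = 0.229). In the triple knockout the call held under all 23, at less than 2-fold.

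Lactate leaves through *SLC16A3* (MCT4), an exporter of glycolytic cells, and moves either way through *SLC16A1* (MCT1). *SLC16A3* had 142, 148 and 231 CPM in wild-type replicates 1 to 3, 132, 116 and 109 with *AGO1* lost, 209, 201 and 212 with *AGO2* lost, 232, 229.5 and 217 in the double and 277, 294 and 307 in the triple knockout. The *AGO1* knockout samples were the lowest of the 15 and the *AGO1/2/3* knockout samples were the highest. Its log2 fold change was -0.55 (SE 0.15, adjusted p = 0.0302) in *AGO1* and 0.75 (SE 0.15, adjusted p = 0.000765) in *AGO1/2/3* knockout cells. The *AGO1* call was lost without wild-type replicate 3, at -0.29 with adjusted p = 0.119, while 0.80 (SE 0.15, adjusted p = 0.00192) separated *AGO2* from *AGO1* knockout cells. *SLC16A1* stayed between 125 and 238 CPM and was called in no comparison with wild-type cells.

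Kinases set the flux at branch points of the pathway. *PDK1*, which shuts pyruvate dehydrogenase, had 31.6, 35.5 and 66.00 CPM in wild-type replicates 1 to 3, 34.3, 31.2 and 33.5 with *AGO1* lost, 65.4, 41.5 and 61.7 with *AGO2* lost, 17.6, 18.3 and 25.2 in the double and 16.3, 19.9 and 16.2 in the triple knockout. The 6 samples of the *AGO1/2* and *AGO1/2/3* lines were the lowest of the 15, with log2 fold changes of -1.13 (SE 0.24, adjusted p = 0.00463) and -1.34 (SE 0.24, adjusted p = 0.000403), and both held without wild-type replicate 3, at -0.74 and -0.97. *PFKFB3* and *PFKFB4* make the sugar bisphosphate that activates phosphofructokinase. *PFKFB3* stayed between 35.8 and 53.5 CPM. *PFKFB4* had 11.3, 10.6 and 46.5 CPM in wild-type replicates and 42.2, 21.6 and 42.3 CPM with *AGO2* lost, and between 9.06 and 21.5 CPM in the other 9 samples. Neither was called against wild-type cells with all samples.

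Of the HIF genes, *HIF1A* (ENSG00000100644, chromosome 14 from 61695513 to 61748259), the oxygen-labile alpha subunit, had 172, 205 and 171 CPM in wild-type replicates 1 to 3, 165, 174 and 168 with *AGO1* lost, 198, 219.9 and 205 with *AGO2* lost, 246, 255 and 235 in the double and 324, 377 and 391 in the triple knockout. The *AGO1/2/3* knockout samples were above all others and the *AGO1/2* knockout samples came next, with no overlap with the wild-type samples. The log2 fold change was 0.43 (SE 0.10, adjusted p = 0.00729) in *AGO1/2* and 0.997 (SE 0.10, adjusted p = 1.46e-06) in *AGO1/2/3* knockout cells, 1.996-fold, and 0.57 (SE 0.10, adjusted p = 0.000696) between these lines. These values moved little without wild-type replicate 3, to 0.37 and 0.92. *EPAS1* (HIF-2 alpha) stayed between 33.5 and 54.6 CPM and was not called. The prolyl hydroxylases *EGLN1* and *EGLN3* were not called against wild-type cells with all samples, and *EGLN3* was higher in *AGO2* than in *AGO1* knockout cells by 1.65 (SE 0.36, adjusted p = 0.00577).

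In *AGO1/2/3* knockout cells, the line with the highest *HIF1A* RNA, 0 of the 9 tested hypoxia-induced members were called higher and 3 were called lower, against 20.3% and 19.8% of all genes. Their median log2 fold change was -1.05 with all samples, against -0.01 for all genes, and -0.01 without wild-type replicate 3. At an unadjusted p under 0.05 in edgeR, 0 of them were higher and 5 lower, and DESeq2 called 0 higher. Without wild-type replicate 3, *ADM* and *BNIP3L* were called higher there, and *VEGFA* and *ANKRD37* lower. With all samples, 3 of the 6 lactate dehydrogenase and transport members were called higher in this line and 1 lower. Of the 15 enzymes from glucose to pyruvate 1 was higher and 3 lower, and of the 3 regulatory kinases 0 and 1. Of 21 tested further hypoxia-induced genes, 6 were called higher and 5 lower. *VEGFA*, the angiogenic growth factor (ENSG00000112715, chromosome 6 from 43770184 to 43786487), had 81.6, 200.1 and 69.9 CPM in wild-type replicates 1 to 3, 37.5, 65.04 and 67.9 with *AGO1* lost, 54.6, 57.7 and 65.4 with *AGO2* lost, 37.2, 36.1 and 64.1 in the double and 32.00, 34.6 and 29.5 in the triple knockout. Wild-type replicate 2 was the highest sample by far, and the *AGO1/2/3* knockout samples were the lowest of the 15. Its log2 fold change was -1.36 (SE 0.34, adjusted p = 0.0116) in *AGO1/2* and -1.87 (SE 0.34, adjusted p = 0.00045) in *AGO1/2/3* knockout cells. Without wild-type replicate 2 these were -0.75 (adjusted p = 0.0482) and -1.27 (adjusted p = 0.00061).

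*ANKRD37*, a small HIF target, had 2.69, 2.74 and 9.47 CPM in wild-type replicates 1 to 3, 2.61, 2.05 and 1.87 with *AGO1* lost, 2.44, 3.77 and 7.14 with *AGO2* lost, 1.22, 1.41 and 1.81 in the double and 1.43, 1.44 and 1.42 in the triple knockout. The *AGO1/2* and *AGO1/2/3* knockout samples were all below the wild-type samples, with log2 fold changes of -1.75 (SE 0.47, adjusted p = 0.0175) and -1.80 (SE 0.46, adjusted p = 0.00597). When wild-type replicate 3 was left out these were -0.90 (adjusted p = 0.101), no longer called, and -0.95 (adjusted p = 0.0445). *P4HA1*, the collagen prolyl hydroxylase, had 42.3, 46.9 and 171 CPM in wild-type replicates 1 to 3, 43.2, 32.6 and 44.95 with *AGO1* lost, 147, 82.3 and 101 with *AGO2* lost, 46.3, 54.4 and 51.2 in the double and 39.7, 42.3 and 43.8 in the triple knockout. Triple knockout samples overlapped wild-type replicates 1 and 2, and the log2 fold change of -1.05 (SE 0.39, adjusted p = 0.0433) became -0.12 (adjusted p = 0.683) without replicate 3. *BNIP3* and *BNIP3L*, receptors for the removal of mitochondria, were not called against wild-type cells with all samples. *BNIP3* had 21.7, 18.3 and 96.2 CPM in wild-type replicates 1 to 3, 29.8, 18.2 and 20.98 with *AGO1* lost, 92.4, 49.00 and 57.8 with *AGO2* lost, 25.1, 24.2 and 24.5 in the double and 18.2, 20.3 and 22.3 in the triple knockout, with wild-type replicate 3 and the *AGO2* knockout samples above the rest. *BNIP3L* was called higher in *AGO1/2/3* knockout cells only without wild-type replicate 3, at 0.75 (adjusted p = 0.0151).

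*ADM*, the vasodilator adrenomedullin, had 24.7, 18.2 and 51.7 CPM in wild-type replicates 1 to 3, 20.2, 13.3 and 16.1 with *AGO1* lost, 45.7, 59.5 and 77.8 with *AGO2* lost, 30.3, 25.3 and 20.6 in the double and 44.02, 38.8 and 42.6 in the triple knockout. The *AGO2* knockout samples overlapped wild-type replicate 3, and the log2 fold change of 0.95 (SE 0.30, adjusted p = 0.0377) was lost under 10 of 23 alternatives, among them leaving out wild-type replicate 1, at 0.78 (adjusted p = 0.122). The histone demethylase *KDM3A*, the lipase inhibitor *ANGPTL4* and the differentiation gene *NDRG1* were not called against wild-type cells with all samples. *NDRG1* had 111, 294 and 428 CPM in wild-type, 154, 241 and 252 CPM in *AGO1/2* and 443, 386 and 353 CPM in the triple knockout, with log2 fold changes of -0.36 and 0.50. It lies on the long arm of chromosome 8, where the median of 11 neighbours within 5 Mb was -0.58 on the same scale in the double and -0.05 in the triple knockout.

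The knockout lines were also compared with each other, which takes the wild-type means out of the comparison, though the wild-type samples still enter the estimate of the spread. *AGO2* knockout cells had higher levels than *AGO1* knockout cells for 13 of 37 members (35.1%), against 9.67% of all genes, and lower levels for 0, against 8.73%. The count of lower members was also 0 at an unadjusted p under 0.05 in edgeR and 0 by DESeq2. The 13 were *HK1*, *HK2*, *ENO2*, *SLC2A3*, *SLC16A3*, *PDK1*, *PFKFB4*, *HIF1A*, *EGLN3*, *ADM*, *BNIP3*, *BNIP3L* and *P4HA1*. The groups did not overlap for 29 of all 38 members, all of them higher in *AGO2* knockout cells. These include *CA9*, which was not tested. Of all genes tested, 20.4% were higher and 18.6% lower without overlap. The median log2 difference was 0.58 for the members and 0.00 for all genes. *ADM* differed by 1.88 (SE 0.31, adjusted p = 0.000796) and *P4HA1* by 1.45 (SE 0.39, adjusted p = 0.0197). The count ran from 5 without *AGO1* knockout replicate 2 or 3 or *AGO2* knockout replicate 1 to 21 without wild-type replicate 2 or 3, and the calls of *HK2*, *ENO2*, *SLC16A3*, *EGLN3* and *ADM* held under every alternative without a minimum fold, with *SLC16A3* under 2-fold. *AGO2* knockout replicate 1 was the highest of its line for 21 of 37 members, against 37.9% of all genes. Total counts were 45271100, 44582000 and 40419200 in the *AGO2* and 31465800, 27710000 and 30470900 in the *AGO1* knockout samples. The other mode of quantification in the *AGO2* knockout files enters every comparison with that line and cannot be told apart from genotype.

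From the *AGO2* to the *AGO1/2* knockout line, 11 members were lower against 11.1% of all genes and 1, *SLC2A3*, was higher against 12.8%. The 11 were *HK2*, *PFKM*, *LDHB*, *SLC16A1*, *PDK1*, *PFKFB3*, *EGLN3*, *ADM*, *BNIP3*, *P4HA1* and *ANKRD37*, and *HK2* differed by -1.78 (SE 0.27, adjusted p = 0.000274) and *PDK1* by -1.47 (SE 0.24, adjusted p = 0.000571). From the *AGO1* to the *AGO1/2* knockout line, 6 members were higher against 11.5% of all genes, namely *ENO2*, *PKM*, *SLC2A1*, *SLC2A3*, *SLC16A3* and *HIF1A*, and 0 were lower against 7.95%, while 4 were lower at an unadjusted p under 0.05 and 1 by DESeq2. *SLC2A3* differed by 2.85 (SE 0.36, adjusted p = 4.42e-05) and *SLC16A3* by 0.93 (SE 0.15, adjusted p = 0.000344). Between *AGO1/2/3* and *AGO1/2* knockout cells *SLC2A3* and *HIF1A* were higher, 2 of 37 members against 11.9% of all genes, and *HK2*, *PFKM* and *LDHB* were lower, 3 of 37 against 10%. When only the 6 samples of these lines entered the fit, the counts were 8 and 8, while 3124 and 2868 of all 20868 genes tested were called.

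Shares within enzyme families, computed from CPM per kilobase of exon, do not depend on the scaling of a library. Their size depends on the exon lengths used. *SLC2A3* made up 6.31, 9.10 and 6.97% of the 2 glucose transporter genes in wild-type replicates 1 to 3 and 38.2, 45.2 and 48.1% in *AGO1/2/3* knockout cells, with 2.06 ± 0.301% where *AGO1* was lost, 3.35 ± 0.752% where *AGO2* was lost and 6.61 ± 0.384% in the double knockout (SD, n = 3). *HK2* took 50.2, 57.01 and 62.5% of *HK1* and *HK2* in wild-type, 65.01 ± 0.589% in *AGO2* knockout cells, 37.8 ± 4.41% in the double and 17.6 ± 2.74% in the triple knockout. Both families thus changed composition in the triple knockout with no overlap with wild-type samples. *PFKM* fell from 31.9 ± 4.77% to 22.7 ± 1.54% of the 3 phosphofructokinase genes, and *PFKP* stood at 48.6 ± 4.49% and 58.6 ± 3.29%, again without overlap. *LDHB* made up 71.98, 75.01 and 54.7% of the lactate dehydrogenase genes in wild-type replicates 1 to 3 and 53.4, 52.9 and 53.3% in *AGO1/2/3* knockout cells, so wild-type replicate 3 lay near the triple knockout. *SLC16A3* made up 41.9 ± 9.07% of the lactate transporter pair in wild-type, 32.3 ± 2.25% in *AGO1* and 57.5 ± 0.724% in *AGO1/2/3* knockout cells. *HIF1A* rose from 84.5 ± 0.394% to 91.1 ± 1.52% of the HIF alpha pair. With 3 samples a line, an exact permutation test (two-sided) can reach no p below 0.1, so these shares are given without a test.

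**Figure D5:**
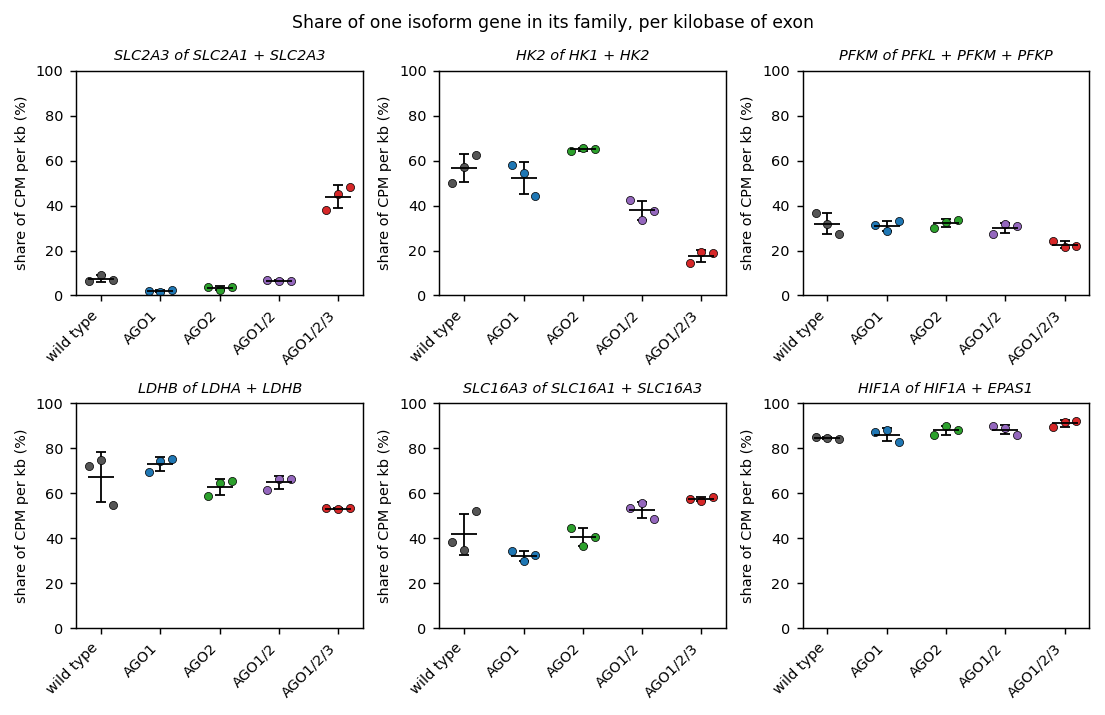
Share of 1 gene in its family in each sample, in percent of the summed CPM per kb of the family (points, replicates, line and bars, mean and SD of 3 replicates). *SLC2A3* rose to 43.8 ± 5.11% and *HK2* fell to 17.6 ± 2.74% in *AGO1/2/3* knockout cells.

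Beyond the 38 members, 65 further pathway genes were examined, of which 58 were tested. In *AGO1/2/3* knockout cells 15 were called higher and 10 lower, beside the 20.3% and 19.8% of all genes given above. Of 21 tested further hypoxia-induced genes, 6 rose and 5 fell. The 3 largest increases were *BHLHE41*, a transcriptional repressor, at 1.29 (SE 0.27, adjusted p = 0.00148), *AK4*, a mitochondrial adenylate kinase, at 1.29 (SE 0.25, adjusted p = 0.000682), and *CA12*, a carbonic anhydrase, at 1.25 (SE 0.24, adjusted p = 0.000556). The 3 largest decreases were *DDIT4*, an inhibitor of mTOR signalling, at -3.82 (SE 0.59, adjusted p = 0.000103), the mitochondrial protein gene *FAM162A* at -2.19 (SE 0.31, adjusted p = 4.89e-05), and the secreted glycoprotein gene *STC2* at -2.14 (SE 0.57, adjusted p = 0.00692). *DDIT4* had 150.2, 324 and 122 CPM in wild-type replicates and 16.7, 14.1 and 11.4 CPM in *AGO1/2/3* knockout cells, and *AK4* had 71.6, 57.6 and 147 and 194, 229 and 251 CPM. For both genes the triple knockout samples lay outside the wild-type range. Of the 10 genes of HIF partners and HIF degradation, 4 rose and 1 fell. Of the 7 pentose phosphate genes 2 rose and 1 fell, of the 12 genes of pyruvate entry into mitochondria 2 rose and 2 fell, and of the 8 tested further glycolytic isozymes 1 rose and 1 fell. With wild-type replicate 3 left out, 16 of 59 tested further genes were called higher and 10 lower, of them 9 and 5 of the hypoxia-induced genes. The 6 genes named kept their calls, and *FAM162A* differed by -1.54.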

How the data were processed

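Stranded RNAseq libraries depleted of ribosomal RNA were made from 5 HCT116 lines, 3 biological replicates each. The authors mapped filtered reads to hg38 using STAR, ran Salmon, and deposited one estimated count per gene and sample (an expected count, on no depth scale). STAR 2.5.3a and Salmon 0.11.0 are the versions in the submitters' processing notes. Fractional values made up 30.8% to 33.8% of each file. *AGO2* knockout files differ from the rest in the quantification mode that their headers give.

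Estimated counts were rounded, filtered with filterByExpr and scaled by TMM (factors 0.947 to 1.09) in edgeR 4.0.16 and R 4.3.3. A single quasi-likelihood model with a mean per line was fitted to the 15 samples, with Benjamini-Hochberg adjustment over all genes tested. The common biological coefficient of variation was 0.152. Positions and exon lengths come from GENCODE v44 on GRCh38, which named 57167 of the 57875 genes. Shares, promoter matches and figures were made with Python 3.11.15, pandas 2.3.3 and matplotlib 3.10.9. The fit was tested on simulated counts with known changes.

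All 38 members are named. Of 65 further pathway genes, the 3 largest increases and 3 largest decreases in *AGO1/2/3* knockout cells are named among called genes of at least 1 CPM whose samples did not overlap. The members and lists were chosen with earlier results of these data known. Alternatives were DESeq2 1.42.0's size factors or Wald test, total counts only, no filter on low counts, 10 or more counts required of each sample, a fit to only the 6 samples compared, the replicate number as a block, at least 2-fold, and each sample left out in turn. Leaving out chromosomes 8 and Y, and comparing *AGO1/2/3* with each single knockout line, were added after seeing the data. Replicates are called biological by the study. The eCLIP samples were not analysed here.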

Additional observations from a re-analysis of the deposited data

Results flagged for a closer look

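Members called in opposite directions against wild-type cells in different knockout lines were compared between those lines directly, in the same edgeR model. Each direct difference passed the adjusted threshold, but the opposite calls had picked these members, so passing is no independent result. The calls of *SLC2A3* in *AGO2* and *SLC16A3* in *AGO1* knockout cells were lost without wild-type replicate 3. That of *LDHB* in *AGO2* knockout cells was lost without wild-type replicate 2. *SLC2A3* was called lower in the single knockouts and higher in the triple, and its level was higher in *AGO1/2/3* than in *AGO1* knockout cells by 6.96 (log2, standard error 0.41) and than in *AGO2* knockout cells by 5.80 (standard error 0.38). *SLC16A3*, lower in *AGO1* and higher in *AGO1/2/3* knockout cells, differed between them by 1.30 (standard error 0.15). *LDHB*, higher in *AGO2* and lower in *AGO1/2/3* knockout cells, differed by -1.12 (standard error 0.16). All 3 samples of each line lay on the same side in these direct comparisons.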

How the results depend on the processing

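Of 30 called values in the 4 comparisons with wild-type cells and the comparison of *AGO1/2/3* with *AGO1/2* knockout cells, 18 kept their direction and call under all 23 alternatives that set no minimum fold, and 11 of the 18 were at least 2-fold. *SLC2A1* in *AGO2* knockout cells and *ENO2* in *AGO1/2* knockout cells, not called with all samples, turned to 0.55 and 0.69 without wild-type replicate 3. With other samples left out they were as low as -0.34 and -0.50. Wild-type replicate 3 had 342 CPM of *SLC2A1*, against 125 and 127 CPM in replicates 1 and 2. For *ENO2* it had 115 CPM, against 37.1 and 29.3 CPM. The cause of this difference between the replicates was not tested.

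With each sample left out in turn, the counts of called members ran as follows. Lower in *AGO1* knockout cells, 2 to 8. Higher in *AGO2* knockout cells, 0 to 26, and lower, 0 to 3. Higher in *AGO1/2* knockout cells, 1 to 6, and lower, 2 to 6. Higher in *AGO1/2/3* knockout cells, 5 to 10, and lower, 6 to 17. Higher in *AGO1/2/3* than in *AGO1/2*, 2 to 6, and lower, 2 to 5. Higher in *AGO2* than in *AGO1*, 5 to 21. Lower in *AGO1/2* than in *AGO1*, 0 to 2. Higher in *AGO1/2* than in *AGO2*, 1 to 4, and lower, 5 to 18. Counts over all genes moved as well, from 389 to 2612 higher in *AGO2* and from 3947 to 4955 lower in *AGO1/2/3* knockout cells.

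With total counts only, 5 members were lower in *AGO1*, 0 higher and 2 lower in *AGO2*, 13 lower in *AGO1/2/3* knockout cells and 1 lower in *AGO1/2* than in *AGO1*, while the median of all genes shifted by up to -0.15 in log2. DESeq2's Wald test gave 7 lower in *AGO1*, 2 lower in *AGO2* and 1 lower in *AGO1/2* than in *AGO1*, and DESeq2's size factors gave 1 for the last. Without a filter, 11 were lower in *AGO1*, 5 higher and 2 lower in *AGO2*, 5 higher and 5 lower in *AGO1/2/3* than in *AGO1/2*, 21 higher in *AGO2* than in *AGO1*, 3 lower in *AGO1/2* than in *AGO1*, and 2 higher and 20 lower in *AGO1/2* than in *AGO2*. With at least 10 counts in every sample, 1 was higher and 2 were lower in *AGO2*, and 2 lower in *AGO1/2* than in *AGO1*. With only the 6 samples compared, 1 was lower in *AGO1*, 0 higher and 0 lower in *AGO2*, 0 higher and 2 lower in *AGO1/2*, 8 higher and 8 lower in *AGO1/2/3* than in *AGO1/2*, 20 higher in *AGO2* than in *AGO1*, 2 lower in *AGO1/2* than in *AGO1*, and 3 higher and 22 lower in *AGO1/2* than in *AGO2*. At 2-fold or more, 0 were higher in *AGO2*, 0 higher in *AGO1/2*, 2 higher and 5 lower in *AGO1/2/3*, 1 higher and 1 lower in *AGO1/2/3* than in *AGO1/2*, 8 higher in *AGO2* than in *AGO1*, 3 higher in *AGO1/2* than in *AGO1*, and 7 lower in *AGO1/2* than in *AGO2*.

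The replicate numbers did not pair the samples, since deviations of same-numbered samples correlated at -0.01 on average. With the replicate number as a block, 1 member was higher in *AGO2* knockout cells and 1 was lower in *AGO1/2* than in *AGO1*, and the other counts stayed within 1.5 times.

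Counts from DESeq2 and from the fits without a filter or to 6 samples are over all 38 members. A gene at 3 counts or fewer could not be told from 0, which limits *CA9*. That limit covers counting error only. Exon lengths are annotated, not effective, lengths.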
